A study of Mus musculus with 27 samples.

Results

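WDR43 peaks at the ends of protein-coding loci were described in mouse embryonic stem cells. The peaks came from a ChIP-seq list of FLAG-tagged WDR43, called FB in the labels, with 41552 peaks. A peak was counted as an end peak when its interval lay within 1000 bp of the first or last base of a locus that the study's RNA-seq table marks as coding. This rule used only positions, and it found 14812 end peaks, 35.6% of the FB list. They lay at 11924 of the 20192 coding loci in the table, or 59.1%. Another 9144 FB peaks lay inside coding loci away from their ends, and 17596 lay outside coding loci. The 5 members just inside the limit, 998 to 1000 bp from an end, had peak scores of 51.58 to 343.52, and the 5 FB peaks just outside it, at 1001 to 1002 bp, had 53.59 to 224.56. The score is the authors' own value per peak and is used here only to rank peaks within the list.

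The end peaks were followed through 16 other peak lists of the same series, all from cells kept in serum and LIF. WDR43 was mapped in Fbio-tagged WDR43 cells given DRB, ActD or DMSO, with 1 library each, and in cells labelled cFB-KI, with 1 library. For FB and cFB-KI the labels give only mouse embryonic stem cells and the FLAG antibody. DRB blocks the kinase that releases paused RNA polymerase II (Pol II), and ActD, actinomycin D, binds DNA and blocks transcription. The other 12 lists mapped 3 forms of Pol II in wild-type cells with WDR43 knockdown (shWDR43) or a control hairpin (shCtl), with 2 libraries per group and antibody: unphosphorylated Pol II (hypoP, antibody 8WG16), and Pol II with serine 5 (Ser5P) or serine 2 (Ser2P) phosphorylated. RNA-seq with 2 biological replicates per group covered the same knockdown. For ChIP-seq the labels do not say whether replicates are separate cultures, so differences there may reflect technical spread only.

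WDR43 is a WD-repeat protein of the small-subunit processome, the nucleolar complex that starts assembly of the small ribosomal subunit. Pol II enters at a gene's start with an unphosphorylated tail, gains serine 5 phosphate as it initiates and pauses near the start, and gains serine 2 phosphate as it elongates towards the 3′ end. Many mouse genes start in CpG islands, stretches of DNA that keep the CG dinucleotides which most of the genome has lost. In stem cells such islands also mark genes that are silent.

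The end peaks were mostly start peaks. The RNA table gives no strand, so strand was taken from the RefSeq promoter table for 16084 coding loci. It is drawn on the later mouse build GRCm38.p6, and orientation was assumed unchanged from mm9, the build of the peak lists. Of the 14812 end peaks, 10112 (68.3%) lay near starts only, 921 (6.22%) near 3′ ends only, and 532 (3.59%) near both, while 2948 (19.9%) lay at loci with no strand. A start peak was found at 9122 of the 16084 stranded loci (56.7%), and a peak at the 3′ end was found at 1414 (8.79%). The start peaks sat on the start itself. In 7603 of the 9122 starts with a peak (83.3%) a peak covered the start base. The peak centres lay at a median of 39.5 bp downstream of the start, with quartiles of -106.5 bp (upstream) and 201 bp (downstream). At 3′ ends no such focus was seen: 11.2% of the pairs of peak and locus had the last base covered, and the quartiles of the centres were -652 bp (inside the locus) and 656 bp (beyond the end).

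**Figure D1:**
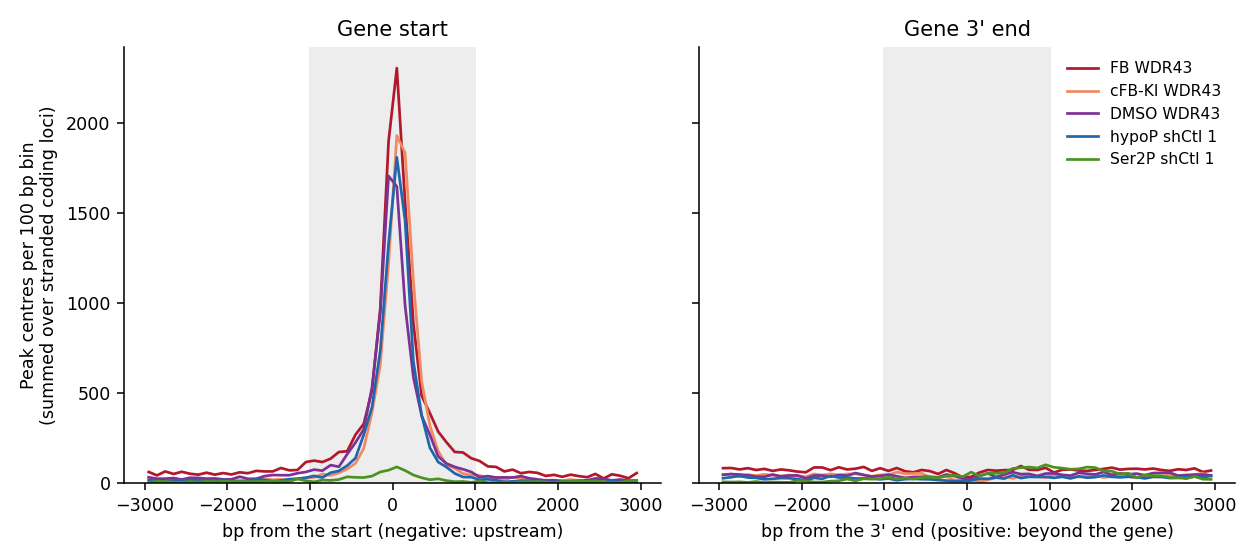
Number of peak centres per 100 bp bin around the start (left) and the 3′ end (right) of stranded coding loci, for 3 WDR43 lists and 2 control Pol II lists; grey marks the 1000 bp rule. WDR43 and hypoP centres piled up at the start, and no WDR43 list had a matching pile at the 3′ end.

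Many starts carried more than 1 FB peak. A single peak was found at 6904 starts, 2 peaks at 1866 and 3 or more at 352. Of the 1866 starts with exactly 2 peaks, 1129 (60.5%) had one centre upstream and the other downstream of the start, and the median distance between the 2 centres was 586.5 bp. End peaks were also shared between genes: 1701 (11.5%) lay near 2 or more coding loci. Of these, 835 lay at starts of loci on opposite strands, the arrangement of divergent gene pairs. Divergent peaks were the stronger members, with a median score of 194 and a median width of 559 bp, against 146 and 452 bp for all end peaks. End peaks in turn scored above the rest of the list, where the medians were 74.3 inside coding loci and 80.7 outside them. End peaks made up 66.7% of the 4155 highest-scoring FB peaks.

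Start peaks differed from starts without a peak in the DNA around them. RefSeq holds a single promoter window, 250 bases before to 50 bases after the start, for 13417 of the stranded loci. The CpG ratio, observed CG dinucleotides over the number that the C and G content would give, had a median of 0.80 in the 7458 windows with a start peak and 0.21 in the 5662 windows of loci with no end peak. The median GC content was 62.7% and 47.7%. The windows below show the range, with every CG in capitals. Cnnm3 (a family of magnesium transport proteins) and Nr2f6 (an orphan nuclear receptor) are among the 10 highest-scoring members. Wdr43 is the targeted gene, and Npas4 (a transcription factor induced by activity in neurons) is a member listed at 0 FPKM in every RNA library. Rpl24 (a large-subunit ribosomal protein) is highly expressed with no end peak, and Olfr613 is an olfactory receptor with no end peak. The windows are from RefSeq on GRCm38.p6, 5′ to 3′ on the gene's strand, with the start at base 251.
Cnnm3: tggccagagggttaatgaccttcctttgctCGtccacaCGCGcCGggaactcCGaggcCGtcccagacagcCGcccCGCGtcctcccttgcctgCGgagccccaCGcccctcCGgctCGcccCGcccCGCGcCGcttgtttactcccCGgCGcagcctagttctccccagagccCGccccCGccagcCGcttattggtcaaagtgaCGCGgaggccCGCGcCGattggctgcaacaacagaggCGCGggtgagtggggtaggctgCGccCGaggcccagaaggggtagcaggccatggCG
Nr2f6: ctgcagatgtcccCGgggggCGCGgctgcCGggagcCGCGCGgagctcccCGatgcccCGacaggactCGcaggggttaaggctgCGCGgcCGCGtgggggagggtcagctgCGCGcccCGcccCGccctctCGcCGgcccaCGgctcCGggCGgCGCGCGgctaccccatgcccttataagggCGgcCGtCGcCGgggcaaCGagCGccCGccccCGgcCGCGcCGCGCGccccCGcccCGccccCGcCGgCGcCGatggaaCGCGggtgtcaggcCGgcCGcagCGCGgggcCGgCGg
Wdr43: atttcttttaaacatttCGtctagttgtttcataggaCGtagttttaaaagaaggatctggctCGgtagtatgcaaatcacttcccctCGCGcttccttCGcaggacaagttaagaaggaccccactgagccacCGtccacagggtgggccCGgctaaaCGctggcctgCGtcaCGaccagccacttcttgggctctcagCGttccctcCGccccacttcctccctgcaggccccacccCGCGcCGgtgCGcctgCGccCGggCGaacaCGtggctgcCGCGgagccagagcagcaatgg
Npas4: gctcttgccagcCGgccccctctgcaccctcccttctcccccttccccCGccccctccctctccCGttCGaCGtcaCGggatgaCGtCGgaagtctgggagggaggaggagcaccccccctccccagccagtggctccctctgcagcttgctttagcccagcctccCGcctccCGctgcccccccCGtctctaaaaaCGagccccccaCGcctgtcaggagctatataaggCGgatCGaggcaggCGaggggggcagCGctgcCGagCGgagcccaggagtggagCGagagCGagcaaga
Rpl24: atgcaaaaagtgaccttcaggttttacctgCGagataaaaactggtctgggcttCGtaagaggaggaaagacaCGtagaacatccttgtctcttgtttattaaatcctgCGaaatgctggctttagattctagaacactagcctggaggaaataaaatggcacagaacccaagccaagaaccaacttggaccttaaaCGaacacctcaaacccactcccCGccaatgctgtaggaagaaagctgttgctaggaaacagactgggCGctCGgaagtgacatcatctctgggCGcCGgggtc
Olfr613: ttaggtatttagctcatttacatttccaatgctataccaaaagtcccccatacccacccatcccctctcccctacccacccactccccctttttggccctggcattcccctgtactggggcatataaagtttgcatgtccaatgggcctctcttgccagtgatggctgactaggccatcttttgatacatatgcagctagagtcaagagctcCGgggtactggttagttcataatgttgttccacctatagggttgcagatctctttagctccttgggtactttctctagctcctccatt
The 4 windows with a start peak nearby held 21 to 53 CG dinucleotides, Rpl24 held 10 and Olfr613 held 1. The start peaks of Cnnm3, Nr2f6 and Wdr43 covered the start base, while that of Npas4 lay 494 bp inside the gene, beyond the window shown.

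CpG content separated starts with and without a peak also within broad classes of RNA level. RNA was read as FPKM, a level scaled to transcript length, here on the authors' spike-in scale, which is not described. Among loci of at least 1 FPKM in shCtl cells, the share with a start peak was 27.6% of 181 windows with a CpG ratio up to 0.2, 73.6% of 806 windows at 0.4 to 0.6, and 96.9% of 1008 windows above 1. Among loci under 1 FPKM it was 3.25% of 2773, 38.3% of 844 and 93.8% of 112 in the same classes. In the class above 1, loci under 1 FPKM thus had a WDR43 start peak nearly as often as expressed loci, while in the lowest class the shares lay far apart. CpG content and expression go together across genes, and these shares are descriptions of 1 ChIP library. RNA level was split only at 1 FPKM and was not held alike within the classes. The share of loci with an end peak itself ran from 12.1% to 49.5% under 1 FPKM and from 72.7% to 93.1% above it.

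**Figure D2:**
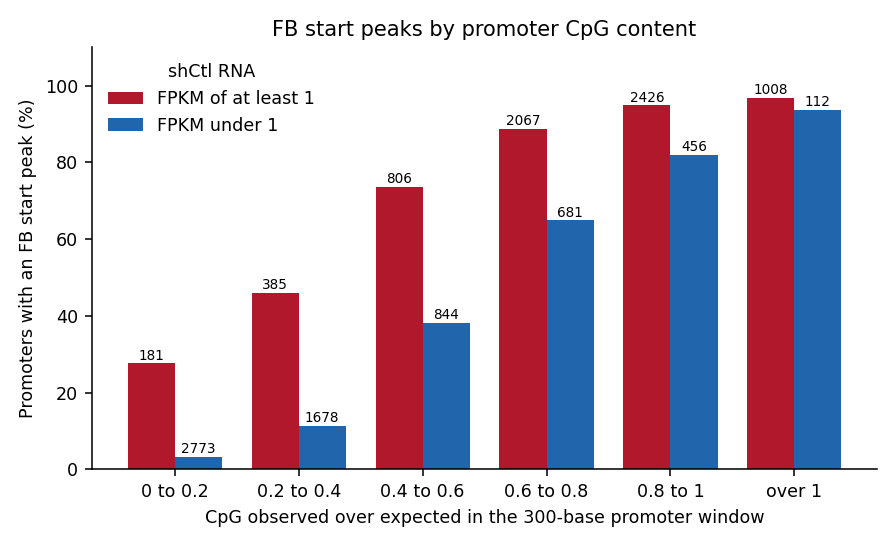
Percent of single-promoter coding loci with an FB start peak (y axis) by CpG ratio of the promoter window (x axis), for loci of at least 1 FPKM and under 1 FPKM in shCtl cells; numbers above bars are loci. The share was 27.6% and 3.25% in the lowest class, and 96.9% and 93.8% in the highest.

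Short promoter motifs were also unequally shared. Each was searched in both strands of the 13417 windows. GGGCGG, the core of the site of Sp1-type zinc finger factors, stood in 71.0% of the windows with a start peak and 19.0% of those with no end peak, and in 48.2% of all windows. CCGGAAG, the core of the ETS factor site, stood in 19.3% and 3.797%, against 12.4% of all. CACGTG, the E-box core, stood in 11.0% and 4.72%, against 8.21% of all, and ATGGCGG, which resembles the YY1 site, in 9.04% and 1.57%, against 5.75% of all. The AT-rich TATAAA, the core of the TATA box, had the opposite distribution, in 6.33% of windows with a start peak and 24.1% of those without an end peak, against 13.9% of all. CCAAT stood in 38.1% and 41.7%, against 39.5% of all, which was nearly even. All of these motifs except the TATA box and CCAAT contain CG, so their shares are tied to the base composition described above.

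Expression was the second feature that members had in common. Of the coding loci listed at 0 FPKM in both shCtl libraries, 630 of 5215 (12.1%) had an end peak. The share was 49.5% of 4311 loci above 0 and under 1 FPKM, and 72.7%, 84.1%, 88.9%, 90.7% and 93.1% in 5 equal classes of the loci of at least 1 FPKM, from low to high. The median score of the best peak went with it, at 111 for loci listed at 0, 198 in the lowest of these classes and 278 in the highest. Still, 2762 coding loci under 1 FPKM had an end peak, 23.2% of the loci with one. Start peaks at loci listed at 0 overlapped a hypoP peak in both shWDR43 libraries in 23.6% of cases and in both shCtl libraries in 17.2%. At loci of 10 to 100 FPKM these shares were 96.2% and 95.4%.

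The highest-scoring end peaks lay at histone genes and at single genes of varied function. The top score, 2910.8, belonged to a 2290 bp peak over the start of Hist2h3c2 (chr3:96042270-96044559, mm9), a histone H3 gene, and the next to Hist2h3c1 (1995.98). Both overlapped a peak in 15 of the 16 other lists, all but ActD. Cacna1a, the pore-forming subunit of a neuronal calcium channel, followed with 1978.22, and Cacng2, an auxiliary subunit of AMPA receptors, with 1965.36. Nr2f6 had 1931.56, a peak shared by Hist1h2ap and 4 histone neighbours had 1843.02, and Gm3435 had 1831.43. Npas4 had 1824.43, Cnnm3 had 1820.06, and Ptma, which encodes the chromatin-linked protein prothymosin alpha, had 1816.72 over a 4150 bp peak. Cacng2 and Npas4 had no peak in any of the 12 Pol II lists, and their RNA was listed at 0 in all 4 RNA libraries. So was that of Hist1h2ap, a histone gene that dividing cells use, so a listed 0 does not show that a gene was not transcribed.

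Gene lists placed the members among known functions. Against 59.1% of all coding loci, an end peak was found at 64 of 64 histone genes, with a median best score of 660. It was found at 81 of 85 cytosolic ribosomal protein genes, 36 of 39 small-subunit processome genes, 12 of 14 snoRNP protein genes and 13 of 13 Pol II subunit genes. All 8 CCT chaperonin genes, 48 of 49 translation initiation factor genes and 72 of 76 mitochondrial ribosomal protein genes had one. Proteasome genes had one at 34 of 39 and naive pluripotency genes at 23 of 29. Median shCtl RNA was 4.65 FPKM for histone genes and 40.4 to 1533 FPKM for the other lists named so far. In the highest expression class, from 34.75 FPKM, 93.1% of coding loci had an end peak. RNA level was not held alike in these counts. Regulators of development, with a median RNA of 0.1 FPKM for Hox genes and 0.25 FPKM for lineage regulators, stood near the share of all coding loci, at 22 of 39 Hox genes (56.4%) and 22 of 41 lineage regulators (53.7%). Receptor and structural families that stem cells do not use were almost free of end peaks: 5 of 1089 olfactory receptors, 1 of 298 vomeronasal receptors, 1 of 55 defensins and 1 of 52 keratin-associated proteins. Histone genes are short, near-identical and clustered, so 73 end peaks served the 64 genes and the reads of single copies are uncertain.

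Stem cell genes were not uniformly marked. Of 10 embryonic stem cell markers, which summed to 2780 and 2609 FPKM in shWDR43 cells and 5075 and 5171 FPKM in shCtl cells, 8 had an end peak. Klf4, a naive pluripotency factor, had the highest score among them, 817 over its start (chr4:55544964-55546077), and this peak overlapped DMSO, cFB-KI, all 4 hypoP and all 4 Ser5P lists. Sox2 had a best score of 291 and Pou5f1, which encodes Oct4, had 122. Nanog, with 126.1 and 115.3 FPKM in shWDR43 cells and 162.5 and 142.2 FPKM in shCtl cells, had none, and neither did Esrrb. Fibroblast markers had an end peak at 1 of 8 genes and summed to 36.8 and 63.7 FPKM in shWDR43 cells and 30 and 41.5 FPKM in shCtl cells. Col1a1 had 17.9 and 30.9 FPKM in shWDR43 cells and 12.3 and 18.4 FPKM in shCtl cells, while Dcn and Lum were listed at 0 in every library. The part of such cells in the peak lists was not tested.

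Highly expressed genes without an end peak were few. Among the 5 most expressed, Rps4x and Rpl10 lie on the X chromosome, and Rpl24, Snrpg (a core protein of spliceosomal snRNPs) and Hnrnpf (an RNA-binding splicing regulator) lie on autosomes. Rps4x had 973.7 and 839.3 FPKM in shWDR43 cells and 1682 and 1560.5 FPKM in shCtl cells. Dkc1, the pseudouridine synthase of snoRNPs and also X-linked, averaged 55.3 ± 11.2 FPKM in shWDR43 cells and 128 ± 18.1 FPKM in shCtl cells (SD, n = 2 each) and had no end peak.

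The X chromosome had a smaller share of marked loci than any autosome. Of 365 X-linked coding loci of at least 1 FPKM, 157 (43.0%) had an FB end peak, against 87.5% of 10285 autosomal loci and a range of 78.7% to 94.2% over single autosomes. DRB, DMSO and cFB-KI lists gave the same order: 1.37% against 10.8% under DRB, 20.3% against 72.8% in DMSO, and 12.9% against 87.0% in cFB-KI. The ActD list, with 0 X-linked loci against 0.253% of autosomal loci, was too short to set the X apart. Ser5P lists also had a smaller share on the X than on autosomes. The shares were 6.03% and 6.30% on the X against 31.0% and 36.4% on autosomes in shWDR43 cells. In shCtl cells they were 1.64% and 0.548% against 10.1% and 13.2%. HypoP Pol II was closer to even, at 87.4% and 78.6% on the X against 92.4% and 90.6% on autosomes in shWDR43 cells, and 72.6% and 72.3% against 87.7% and 87.7% in shCtl cells. Ser2P lists had 14.5% and 13.4% on the X against 24.6% and 25.1% on autosomes in shWDR43 cells, and 15.1% and 18.4% against 27.7% and 29.9% in shCtl cells. Median RNA of these loci was 8.25 FPKM on the X and 10.4 FPKM on autosomes. The number of X copies in these cells and its part in the shares were not tested.

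**Figure D3:**
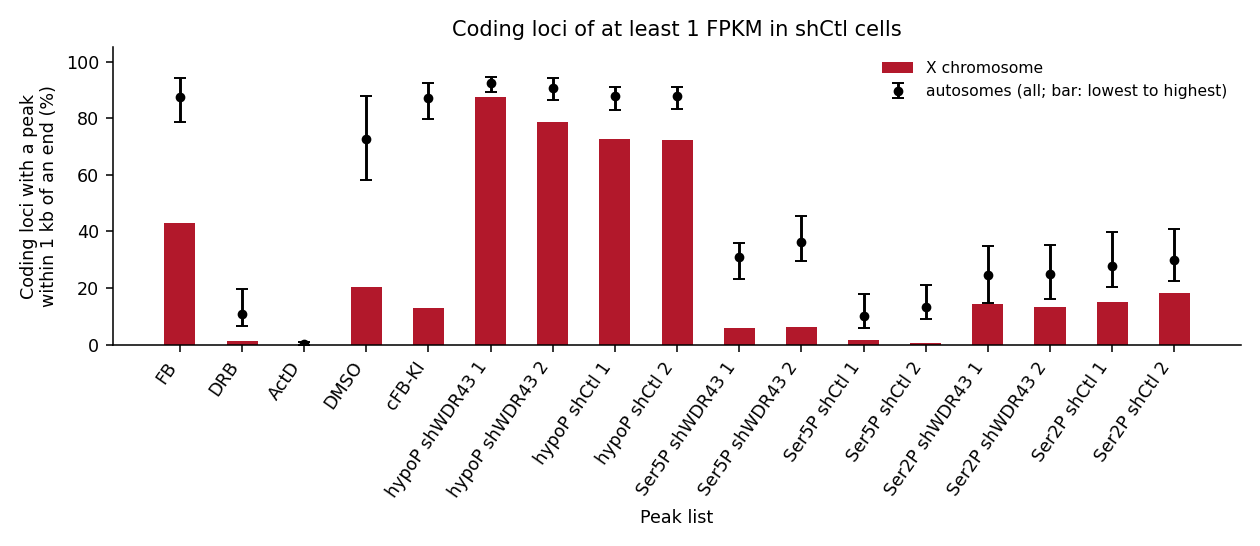
Percent of coding loci of at least 1 FPKM with a peak within 1000 bp of an end (y axis) in each of 17 peak lists (x axis), for the X chromosome (bars) and autosomes (points, with the lowest and highest single autosome). In the FB list 43.0% of X-linked loci had a peak, against 87.5% of autosomal loci.

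The cFB-KI list shared most end peaks. A cFB-KI peak overlapped 82.4% of end peaks by at least 1 bp (exact Clopper-Pearson 95% interval 81.8% to 83.0%, which covers counting error only), against 47.6% of all FB peaks. The share was 27.3% inside coding loci and 28.9% outside them. At starts it was 87.4%, at divergent starts 93.9%, and at 3′ ends alone 34.1%. It went with the FB score, with 64.4% in the lowest of 5 equal score classes of end peaks and 98.4% in the highest. The cFB-KI peaks had a mean width of 1151 bp, against 287 bp in the DMSO list, and wider peaks overlap more easily. There were 649 end peaks (4.38%) with no peak in any of the 16 other lists, against 34.4% inside coding loci and 25.8% outside. Among coding loci with no FB end peak, 1330 had a cFB-KI peak at an end and 524 had a DMSO peak at an end, while 6740 had none in the 3 lists.

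**Figure D4:**
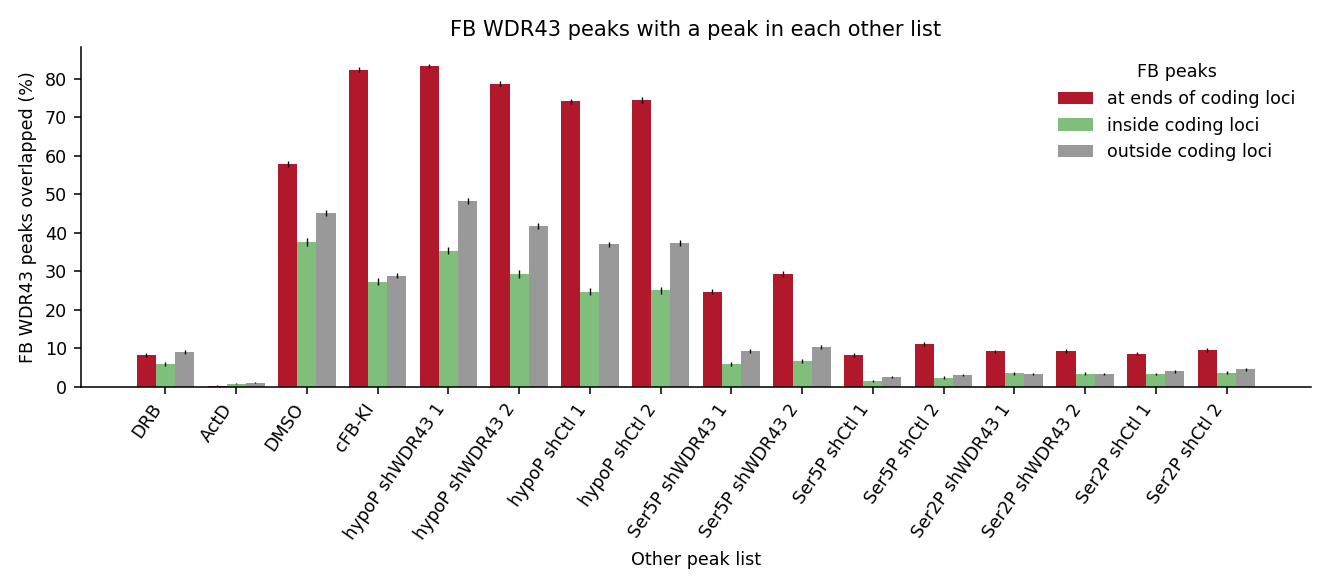
Percent of FB WDR43 peaks overlapped by at least 1 bp by a peak of each of the 16 other lists, for peaks at ends of coding loci (14812), inside them (9144) and outside them (17596); bars on columns are exact 95% binomial intervals. End peaks had the largest share of the 3 classes in every list except DRB and ActD.

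Few end peaks overlapped a peak of the short DRB and ActD lists. A DRB peak overlapped 8.22% of end peaks (interval 7.79% to 8.68%), an ActD peak 0.32% (0.24% to 0.43%) and a DMSO peak 58.0% (57.2% to 58.8%). The shares of all FB peaks were 8.06% for DRB, 0.729% for ActD and 48.1% for DMSO, so the DRB share of end peaks was near that of the whole list. The lists themselves had 4426 peaks under DRB, 407 under ActD and 31189 in DMSO, and overlaps move with list length and peak width. Of the 8587 end peaks with a DMSO peak, 1052 (12.3%) also had a DRB peak and 48 (0.559%) an ActD peak. These were lower than the 13.0% and 1.98% inside coding loci, and the 16.6% and 2.13% outside them. With 1 library per condition there is no replicate check and no test. When 50% of the FB peak had to be covered, the DRB share was 1.01% and the DMSO share 34.3%. With peaks of score 100 or more in the other list, the shares were 1.15% and 32.3%. The mean peak width was 224 bp under DRB and 287 bp in DMSO, against 531 bp for end peaks. Narrow peaks can fail to cover 50% of a wider FB peak, so that setting also reflects width.

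Overlap with the DRB, ActD and DMSO lists was most frequent at the strongest end peaks. The DRB share was 1.08% in the lowest of the 5 score classes and 23.7% in the highest. The DMSO share was 19.2% and 93.6%. Of the 48 end peaks with an ActD peak, 37 were in the highest class. Ribosomal protein genes had 133 end peaks, of which 18 overlapped a DRB peak and 83 a DMSO peak. Histone genes had 73, of which 18 overlapped a DRB peak and 58 a DMSO peak. A DRB peak also overlapped 12 of 67 end peaks at translation initiation factor genes and 8 of 54 at splicing factor and snRNP genes. It overlapped 4 of 24 at RNA polymerase I and nucleolar scaffold genes and 5 of 39 at pause and elongation factor genes. Some other lists had few or none, with 4 of 90 at mitochondrial ribosomal protein genes and 1 of 26 at aminoacyl-tRNA synthetase genes. Proteasome genes had 0 of 39, Pol II subunit genes 0 of 17 and CCT genes 0 of 12. At 8.22% of all end peaks, the smallest of these lists were too short for a count of 0 to set them apart.

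The 41 end peaks found under DRB, ActD and DMSO included many near genes with little or no RNA in the table. The 5 with the highest score lay at Cacng2, Npas4, Xkr7 (of the XK-related family), Iqsec3 (an exchange factor at inhibitory synapses) and Tlk2 (a chromatin-linked kinase), with FB scores of 1965.36, 1824.43, 1752.2, 1608.73 and 1578.22. Xkr7 had 0.1 and 0.2 FPKM in shWDR43 cells and 0.1 and 0.1 FPKM in shCtl cells. Iqsec3 had 0.3 and 0.3 FPKM in shWDR43 cells and 0 and 0.1 FPKM in shCtl cells. Tlk2, by contrast, averaged 17.8 ± 2.33 FPKM in shWDR43 cells and 18.3 ± 2.62 FPKM in shCtl cells (SD, n = 2 each). Of the 44 coding loci at these 41 peaks, 25 (56.8%) were under 1 FPKM in shCtl cells, against 23.2% of all loci with an end peak. A hypoP peak overlapped 46.3% of the 41 in both shWDR43 libraries and 41.5% in both shCtl libraries, against 77.9% and 72.0% of all end peaks.

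Named by eye after their values were seen, and so a description only, the ActD group held further genes of neurons. Grin1 encodes a core NMDA receptor subunit, Glra1 a glycine receptor subunit, Gabrd a GABA-A receptor subunit, Hrh3 a histamine receptor, Slc12a5 a neuronal chloride transporter and Unc13a a synaptic vesicle priming factor. Each of these 6 had at most 0.6 FPKM in any of the 4 RNA libraries. Grin1 had a peak score of 639 and Glra1 had 1169. Of the 51 coding loci at the 48 end peaks with an ActD peak, 26 were under 1 FPKM in shCtl cells. Genes of neurons among them were not counted, so no share of such genes is claimed. Other members of the group were active genes, among them Ncl, which encodes the nucleolar protein nucleolin, and Wdr43 itself. Pcbp2, Cdv3, Ctnna1 and Eif5b, also in the group, averaged 307, 109, 109 and 73.9 FPKM in shCtl cells. The Ncl start peak (score 950.25) overlapped peaks of all 4 WDR43 lists and all 8 hypoP and Ser5P lists. The Lars2 and Dux end peaks overlapped all 16 other lists. Dux belongs to a multicopy family of early embryonic transcription factors, so its reads cannot be placed in a single copy with confidence. Lars2 encodes the mitochondrial leucyl-tRNA synthetase. It was listed at 2703.8 and 2921.8 FPKM in shWDR43 cells and 3256.1 and 3811 FPKM in shCtl cells. The placement of the Lars2 reads was not tested.

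A pair of elements, CAGCACC and GGACAG with 2 bases between, was searched in the same 13417 promoter windows, since it is the core of the RE1 element through which the repressor REST keeps neuronal genes silent outside neurons. It was chosen after the ActD genes, Hrh3 among them, were seen. Its overlap with ActD and DRB peaks is therefore a description and no test, and a part of REST was not tested. It stood in 5 windows, 0.0373% of all. Each is shown in the direction in which the pair reads, with the pair in capitals.
Hrh3: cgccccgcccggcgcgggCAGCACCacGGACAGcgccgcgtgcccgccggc
Ogdhl: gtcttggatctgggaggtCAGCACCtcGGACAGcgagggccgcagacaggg
Ttc9b: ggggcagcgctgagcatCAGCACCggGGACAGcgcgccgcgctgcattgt
Fam163b: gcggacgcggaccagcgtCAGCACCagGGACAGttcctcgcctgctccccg
Fbll1: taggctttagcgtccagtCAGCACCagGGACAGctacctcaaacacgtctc
All 5 genes had a start peak in the FB list, and all 5 of these starts also had a DMSO and a cFB-KI peak. Hrh3, Ogdhl and Fam163b had a DRB peak at the start, and Hrh3 an ActD peak. Ogdhl, which resembles an enzyme of the citric acid cycle, had 31.5 and 25.5 FPKM in shWDR43 cells and 32.4 and 25.6 FPKM in shCtl cells. The other 4 had at most 0.7 FPKM in any library. Of all 13417 windows, 7458 (55.6%) had a start peak and 794 a DRB peak at the start. With up to 1 mismatch in the pair, 28 windows held it, 23 of them with a start peak and 8 with a DRB peak there. With up to 2 mismatches, 267 windows held it, of which 164 (61.4%) had a start peak, near the share of all windows, and 27 a DRB peak there. Windows with up to 1 mismatch made up 1.01% of those with a DRB peak at the start and 0.209% of all. With up to 2 mismatches the shares were 3.40% and 1.99%. Peak score and CpG content were not matched in these counts. A match is a description of letters and not of a bound site.

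Unphosphorylated Pol II was the form found at most members. HypoP peaks covered 81.1% ± 3.27 of end peaks in shWDR43 cells and 74.4% ± 0.272 in shCtl cells (SD, n = 2 each). The single libraries had 83.4% and 78.8% in shWDR43 cells and 74.2% and 74.6% in shCtl cells, against 58.0% and 52.2%, and 47.6% and 47.9%, of all FB peaks. Both knockdown libraries stood above both controls, a difference of 6.73 percentage points, beside 7.43 inside coding loci and 7.83 outside them. The ratio of the means was 1.09 at end peaks, 1.30 inside coding loci and 1.21 outside them. The exact two-sided permutation test gave p = 0.333, the smallest that 2 against 2 libraries allow. At starts hypoP covered 86.8% ± 3.04 in shWDR43 cells and 80.4% ± 0.245 in shCtl cells, and at 3′ ends alone 29.8% ± 4.15 and 23.0% ± 0.614. The shWDR43 lists were also longer over the whole genome, by a mean ratio of 1.43. The hypoP lists held 19542 to 31473 peaks, against 1879 to 7589 for Ser5P and 3501 to 4319 for Ser2P. Mean peak widths were 1679 to 1814 bp for hypoP, 772 to 1043 bp for Ser5P and 2115 to 2452 bp for Ser2P. Shares of different forms therefore do not compare their occupancy.

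Ser5P Pol II was the form whose overlap with end peaks differed most between knockdown and control. It covered 24.7% and 29.3% of end peaks in the shWDR43 libraries and 8.20% and 11.2% in the shCtl libraries, against 14.0% and 16.3%, and 4.33% and 5.83%, of all FB peaks. The groups did not overlap, with SDs of 3.26 in shWDR43 cells and 2.09 in shCtl cells (n = 2 each, exact permutation p = 0.333). The ratio of the means was 2.79, beside 3.16 inside coding loci, 3.50 outside them and 3.21 for the lengths of the lists. The ratio at end peaks was thus no larger than elsewhere or than that of the lists as a whole. In both shWDR43 libraries and neither shCtl library, 1394 end peaks (9.41%) had a Ser5P peak, against 5.28% of all FB peaks, and 63 end peaks (0.425%) had the reverse, against 0.241%. With Pol II peaks of score 100 or more, the difference of 17.3 percentage points shrank to 5.03.

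The Ser5P difference in percentage points was larger at the stronger members, while the ratio was smaller. In the lowest of the 5 score classes, Ser5P covered a mean of 12.6% in shWDR43 cells and 3.59% in shCtl cells. In the highest it covered 55.1% and 22.4%. The ratio of the means was 3.50 in the lowest class and 2.46 in the highest. HypoP went the other way, with differences of 9.85 percentage points in the lowest class and 1.84 in the highest, where 95.5% of peaks were covered in shWDR43 cells and 93.7% in shCtl cells . In both shWDR43 libraries and neither shCtl library, 516 end peaks (3.48%) had a hypoP peak, against 3.67% of all FB peaks, and 41 (0.277%) had the reverse, against 0.245%. Of all end peaks, 15.99% had Ser5P in both shWDR43 libraries and 2.85% in both shCtl libraries. Ribosomal protein genes had it at 72 of 133 end peaks in both shWDR43 libraries and 15 in both shCtl libraries. Histone genes had 60 of 73 and 30 of 73. Mitochondrial ribosomal protein genes had 8 of 90 and 0 of 90, and Zfp zinc finger genes, near the share of all end peaks, 54 of 326 and 6 of 326.

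Ser2P Pol II overlapped a larger share of members at 3′ ends than at starts, but 643 of the 921 peaks at 3′ ends alone (69.8%) had it in no library. At 3′ ends alone it covered 19.4% ± 0.154 in shWDR43 cells and 22.2% ± 0.384 in shCtl cells, a difference of -2.77 percentage points with no overlap between groups. The ratio of these means was 0.875, beside 0.771 for peaks outside coding loci and 0.855 for the lengths of the lists. At starts it covered 6.64% ± 0.0979 in shWDR43 cells and 6.30% ± 0.559 in shCtl cells. Over all end peaks the libraries had 9.17% and 9.31% in shWDR43 cells and 8.60% and 9.47% in shCtl cells, so the groups overlapped (exact permutation p = 1, with 0.333 for 3′ ends), against 5.44% and 5.43%, and 5.48% and 6.09%, of all FB peaks. A Ser2P peak in both shWDR43 libraries and neither shCtl library was found at 108 end peaks (0.729%), against 0.436% of all FB peaks, and the reverse at 110 (0.743%), against 0.616%. The overall difference of 0.206 points was -0.226 without the first shCtl library. Aars, an alanyl-tRNA synthetase gene, had an end peak 436 bp from its 3′ end (chr8:113579905-113581377, score 1248.56). All 4 Ser2P, all 4 hypoP and 3 of the 4 Ser5P lists overlapped it. The weaker start peak of Aars (130.78) was overlapped by all 4 hypoP lists and no Ser5P or Ser2P list. A peak near a 3′ end can also lie near another gene's start, as 532 end peaks did. The place of the Aars peak relative to neighbouring genes is not given here. Of all end peaks, 1757 (11.9%) had no Pol II peak in any of the 12 lists.

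**Figure D5:**
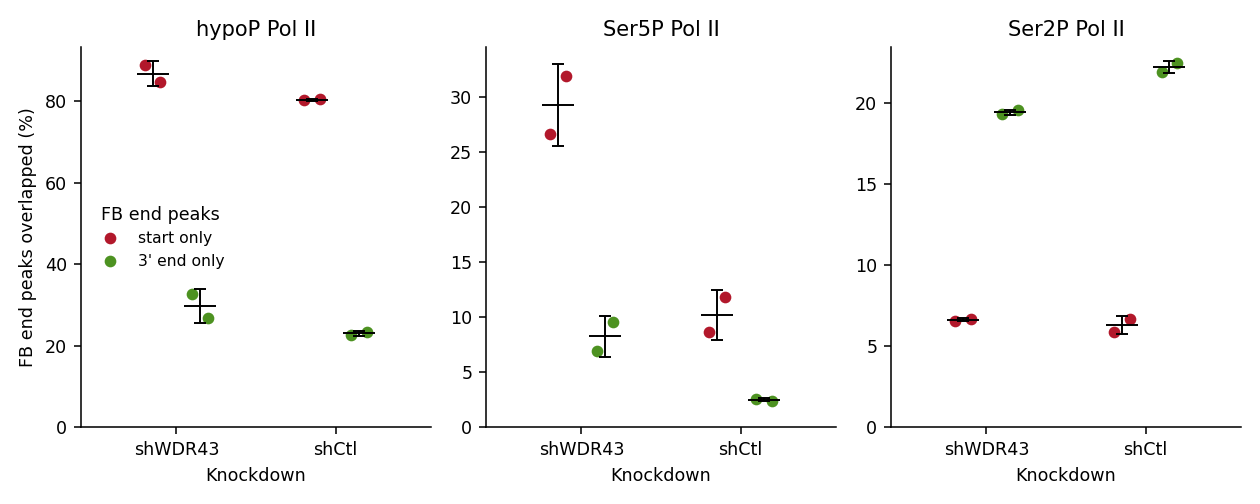
Percent of FB end peaks overlapped by hypoP, Ser5P and Ser2P Pol II peaks (y axes, different scales) in the 2 shWDR43 and 2 shCtl libraries, for peaks at starts only (10112) and 3′ ends only (921); points are libraries, lines are means with SD. Ser5P at starts averaged 29.2% in shWDR43 cells and 10.2% in shCtl cells, and Ser2P had a larger share at 3′ ends than at starts.

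RNA of the genes with an end peak was next compared between knockdown and control. Wdr43 fell, with 21.2 and 20.7 FPKM in shWDR43 cells and 82.3 and 78.2 FPKM in shCtl cells, a log2 change of -1.89 ± 0.12 (SE, limma adjusted p = 0.000751). Its start peak (chr17:71965285-71966174, score 463.47) overlapped 12 of the 16 other lists, among them DRB, ActD, DMSO and cFB-KI. Of the 11924 loci with an end peak, 9189 reached a mean of 1 FPKM and were tested, and 2735 did not. By limma on log2(FPKM + 1), with p-values adjusted over all 12452 genes tested, 4192 (45.6%) fell and 494 (5.38%) rose, against 42.7% and 6.10% of all genes. Among 1480 tested coding loci without an end peak, 500 (33.8%) fell and 176 (11.9%) rose. The median log2 change was -0.40 with an end peak, -0.29 without and -0.39 over all genes.

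Loci with and without an end peak differ in RNA level, and at like levels their changes were close. In the highest of 5 expression classes of tested coding loci, the median log2 change was -0.72 with an end peak and -0.75 without, and in the lowest -0.11 and -0.12. Falls took 80.5% with an end peak and 69.4% without in the highest class, and 12.3% and 15.3% in the lowest. Rises were fewer with an end peak in each of the 5 classes, with 8.14% against 10.7% in the lowest and 1.97% against 10.2% in the highest. No test of these differences was run. When each library was centred on its own median, which moved the median change of all genes from -0.39 to -0.06, 2071 loci with an end peak fell and 1142 rose. The excess of falls over rises was thus smaller than on the deposited spike-in scale, which is not described. Leaving out any single library left 0 loci past the adjusted threshold in either direction, with 3028 to 3921 lower and 367 to 462 higher at an unadjusted p under 0.05, and without the filter on low values 429 fell and 94 rose.

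The changes went with the score and the Pol II pattern of the peaks, and with RNA level. Of all tested loci with an end peak 45.6% fell, and their median shCtl RNA was 11.2 FPKM. In the lowest of 5 classes of loci by best FB score 40.8% fell, and in the highest 51.5%, while median shCtl RNA was 7.85 and 14.6 FPKM. Loci whose end peak had Ser5P in both shWDR43 libraries and neither shCtl library had 666 of 1218 lower (54.7%) and 54 higher, with a median of -0.48 and a median shCtl RNA of 18.4 FPKM. Loci with Ser5P in all 4 libraries had 155 of 262 lower (59.2%) and a median of -0.56, and those with it in both shCtl libraries and neither shWDR43 library had 20 of 41 lower (48.8%). Loci with hypoP in both shWDR43 libraries and neither shCtl library had 48 of 206 lower (23.3%) and 42 higher (20.4%). Their median change was -0.04 and their median shCtl RNA was 3.2 FPKM. Loci whose end peak had a DRB peak had 581 of 1081 lower (53.7%), a median of -0.47 and a median shCtl RNA of 14.5 FPKM.

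Among the gene lists, cytosolic ribosomal protein genes fell in 83 of 83 tested, 35 of 39 small-subunit processome genes fell and 66 of 76 mitochondrial ribosomal protein genes fell, with medians of -0.83, -0.79 and -0.71. With centred libraries 66, 27 and 39 of them fell and none rose. Over all genes tested, 42.7% fell and 6.10% rose on the deposited scale. The median shCtl RNA of these 3 lists was 1533, 43.5 and 40.4 FPKM. In the highest expression class, 80.5% of all tested loci with an end peak fell, so these counts go with RNA level too. Rpl9, the ribosomal protein gene with the highest peak score (741), averaged 1048 ± 98.4 FPKM in shWDR43 cells and 1916 ± 15.3 FPKM in shCtl cells (SD, n = 2 each). Ncl averaged 224 ± 48.2 FPKM in shWDR43 cells and 622 ± 82.7 FPKM in shCtl cells, a log2 change of -1.48 ± 0.17 (SE, limma adjusted p = 0.00152). Targets of p53 leaned upward: 15 of 28 tested rose and 1 fell, with a median of 0.74, and 22 rose and 1 fell with centred libraries. Histone genes moved in both directions, with 14 of 55 tested higher and 11 lower, a median of 0.32, and 22 higher and 9 lower with centred libraries. Phlda3, a p53 target that restrains Akt signalling, with an end peak of score 547, had 74.1 and 73.1 FPKM in shWDR43 cells and 28.2 and 33.6 FPKM in shCtl cells. Ddit4, a stress-induced inhibitor of mTOR signalling with no end peak, also rose, to 46.1 and 45 FPKM in shWDR43 cells, against 13.1 and 15.6 FPKM in shCtl cells.

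Large rises and falls came from members with peaks over a wide range of scores. The adjacent genes Ltb4r1 and Ltb4r2, which encode leukotriene B4 receptors, rose by 2.42 and 2.37 on the log2 scale. Ltb4r1 had 8.1 and 9.2 FPKM in shWDR43 cells and 0.9 and 0.7 FPKM in shCtl cells, with a best peak score of 230.45. Cpz, a carboxypeptidase, and Klhl26, a kelch-like protein, rose by 2.23 and 2.18. Both shWDR43 libraries had a hypoP peak at the Cpz end peak, and neither shCtl library did. The Klhl26 end peaks had hypoP in all 4.

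On the log2(FPKM + 1) scale the largest fall was that of Myrf, a membrane-tied transcription factor, with 2.3 and 1.8 FPKM in shWDR43 cells and 18.2 and 21.9 FPKM in shCtl cells, a log2 change of -2.79. Its end peak scored 571. With a pseudocount of 0.1 the fall of Hopx was larger, at -3.59 against -3.23 for Myrf. Slc16a3, a lactate exporter, fell by 2.61, Hopx, a homeodomain protein without DNA binding, fell by 2.59, and Fgf17, a growth factor, fell by 2.38 on the log2 scale. Ldha, which makes lactate from pyruvate, had 102.1 and 90.7 FPKM in shWDR43 cells and 475.3 and 523.7 FPKM in shCtl cells. HypoP peaks overlapped the best end peaks of Myrf, Slc16a3, Fgf17 and Ldha in all 4 libraries, while that of Hopx had hypoP in 1 shWDR43 library only. Limma's adjusted p for these 9 genes ran from 0.000717 to 0.00107. Fgf17 missed the threshold when no filter on low values was used, with an adjusted p of 0.0789.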

How the data were processed

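The members and gene lists were chosen with earlier results of these data known. Per the submitters' processing notes, reads were processed with Bowtie2, TopHat, Cufflinks and Novoalign on mm9, and the role of each tool is not given. The authors deposited a BED list per ChIP library with a score per peak, whose caller and pooling are not given. They deposited the RNA table as FPKM, a unit read from the values and from Cufflinks, with a spike-in scale that is not described. FPKM carries no depth, so depth is unknown. Their table also holds fold changes and p-values, which the authors deposited without naming a test and which were not used here. The deposited score ran from 50 upwards in these lists.

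Overlap meant at least 1 bp. RNA was tested with limma 3.58.1 (R 4.3.3) on log2(FPKM + 1) values, its prior variance following the mean level, for genes with a mean of at least 1 FPKM, with Benjamini-Hochberg adjustment and a threshold of 0.05. Fold changes are on that scale, which understates low genes. The fit and the interval steps were tested on simulated data. Python 3.11.15, pandas 2.3.3 and scipy 1.17.1 gave counts, exact 95% intervals and exact permutation tests. Equal library numbers did not pair the RNA libraries (correlation of deviations 0.0504 over 12452 genes). Named genes were the 10 highest-scoring end peaks, the 5 highest found under DRB, ActD and DMSO, per list the highest-scoring member and the most expressed locus without one, the 5 largest RNA rises and falls with groups that do not overlap, the 5 most expressed loci without an end peak, and Wdr43. Further genes are named as examples. A gene that the rule picks is not reported here. Alternatives changed the distance, scores, overlap, pseudocount, filter, scale, trend, block and libraries. The other libraries of the series were not used here.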

Additional observations from a re-analysis of the deposited data

How the results depend on the processing

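The number of end peaks was 12889 at 500 bp, 16732 at 2000 bp and 11518 with loci of at least 1 FPKM, and 9474 with FB scores of at least 100. Shares moved beyond their counting interval under most settings. With 50% of the FB peak covered they were 1.01% (DRB), 0.128% (ActD), 34.3% (DMSO) and 81.0% (cFB-KI). Mean peak widths in these lists were 224 bp, 445 bp, 287 bp and 1151 bp, against 531 bp for end peaks. The 50% setting therefore also reflects width. At 500 bp the shares were 8.84% (DRB), 62.2% (DMSO) and 86.1% (cFB-KI), and at 2000 bp 7.78%, 55.2% and 77.4%. With FB scores of at least 100 they were 11.9% (DRB), 0.496% (ActD), 75.4% (DMSO) and 91.0% (cFB-KI), and with the other list's scores of at least 100 they were 1.15%, 0.0810%, 32.3% and 66.3%. Differences of Pol II shares, shWDR43 minus shCtl, kept their sign in each alternative except Ser2P without shCtl replicate 1. Leaving out single libraries gave 4.41 to 9.04 points for hypoP, 15.0 to 19.6 for Ser5P and -0.226 to 0.638 for Ser2P.

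For loci with an end peak, no filter on low values gave 429 lower, 94 higher and a median log2 change of -0.27, and centred libraries gave 2071, 1142 and -0.075. Without single libraries the counts were 0 to 0 and the medians -0.46 to -0.35. The replicate block gave 4679 lower and 556 higher, in a design whose numbers were not found to pair the libraries. The other settings gave 3603 to 4205 lower. Of the 31 genes whose change was recomputed, 28 lost the adjusted threshold without any single library and 17 without the filter, none changing direction. The causes of these shifts were not tested. Depth of the FPKM table is unknown, and peak lists hold only peaks past the authors' threshold, so absence from a list is not absence of protein.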
